A study of Danio rerio with 12 samples.

Results

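The cytosolic ribosomal protein genes code for the proteins that, with ribosomal RNA, build the large and the small subunit of the ribosome outside mitochondria. They were taken by symbol, as every gene whose symbol starts with rpl or rps followed by a number, together with *rplp0*, *rplp1*, *rplp2*, *rplp2l* and *rpsa*, and the 11 genes for S6 kinases were left out. The rule gave 85 of 27191 genes, 47 of the large and 38 of the small subunit, and all 85 passed the filter on low counts that left 23222 genes for testing. The gene name table writes 72 of the 85 symbols in capitals, in the human style, and *rpsa* stands there as *RPSA2*. Its spelling is kept here. It gives 4 symbols to 8 of the genes, and the copies of *RPL5* and *RPS26* are told apart here by their Ensembl identifier. By name, 7 of the 85 are genes like a ribosomal protein gene or its partner, among them *RPL7L1*, *RPL22L1*, *RPL36AL*, *rps27l*, *rplp2l* and *rps19bp1*.

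The cells came from hearts of the zebrafish line *sqet31Et*, in which a Tol2 insertion at an unmapped site carries EGFP behind a basic promoter of *krt4*. EGFP is strong in the atrioventricular canal (AVC) at either stage and weak in some myocardium, and the bulbus arteriosus carries it at 72 but not at 48 hpf, so the sources of GFP+ cells differ between the stages. Pooled hearts were dissociated at 48 and 72 hours post fertilization (hpf) and sorted into GFP+ and GFP- cells. This gave 4 groups of 3 libraries each, GFP+ and GFP- at either stage, and all of them carry the insertion and were given no other treatment than the anaesthetic tricaine before dissection.

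A ribosome holds each of most ribosomal proteins once, and most of them come from a single gene, while a few are kept as pairs of paralogs. Their mRNAs begin with a terminal oligopyrimidine tract, through which mTOR signalling raises or lowers the translation of the whole set, and Myc factors raise its transcription in growing cells. Counts of mRNA, as here, do not show translation or the number of ribosomes.

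Total counts ran from 20530602 to 62359004 per library. Replicate 1 of GFP- at 72 hpf stood apart: its 10 most counted genes took 21.0% of its count against at most 8.47% elsewhere, and its factor in edgeR's TMM scaling was 0.575, where the others reached 1.18. Counts scaled to the TMM-adjusted library size (CPM), summed over the erythrocyte markers, were 55941 in it against 6920 and 5551 in the other libraries of its group, 1279 to 2485 in GFP- at 48 hpf and 4.58 to 41.4 in GFP+ cells. Its sum over the markers of exocrine pancreas was 1720 CPM against at most 196. Cardiomyocyte markers summed to 2733 to 5292 CPM in GFP+ and 53.7 to 245 CPM in GFP- at 48 hpf, where the neuron markers reached 4792 to 9126 CPM, so that the GFP- fraction of that stage showed few signs of heart muscle. Because of this library, the counts of calls and the median differences that rest on GFP- at 72 hpf are given with and without it.

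The 85 genes together made up 1.33% to 5.12% of the counts of a library. In GFP+ at 48 hpf they took 2.44%, 1.80% and 2.73% in replicates 1, 2 and 3 (mean 2.33% ± 0.476, SD, n = 3). In GFP- at 48 hpf they took 2.19%, 1.68% and 2.05% (1.97% ± 0.261). In GFP+ at 72 hpf they took 2.47%, 1.46% and 1.33% (1.75% ± 0.626). In GFP- at 72 hpf the shares were 5.12%, 1.99% and 1.37% (2.83% ± 2.01, or 1.68% without replicate 1). Apart from the first library of GFP- at 72 hpf, the ranges of the groups overlapped. In bulk samples, fewer cells of a type and less RNA per cell cannot be told apart. Without the 7 like genes the same shares ran from 1.28% to 4.95%.

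On the scale of CPM the members summed to 89077 in replicate 1 of GFP- at 72 hpf and to 19526 and 11604 in replicates 2 and 3. In the other groups the sums were 21958, 15617 and 24729 in GFP+ at 48 hpf, 20110, 14257 and 20038 in GFP- at 48 hpf, and 27912, 16454 and 13590 in GFP+ at 72 hpf. The first GFP- library at 72 hpf was thus 5.72 times the mean of the other libraries of its group, while the remaining 11 libraries spanned a 2.41-fold range. In percent of the total count, its ratio to the mean of those of its group was 3.05. The size of its excess in CPM, also for single genes, thus depends on the TMM scaling. For 84 of the 85 genes this library held the highest CPM of its group, and the median gene was 6.25 times the mean of the other libraries there. *RPS28* stood at 8.35 times, *rps27l* at 7.74 and *RPL11* at 7.27, but *RPLP0* at 2.96, *RPL4* at 2.45 and *RPL3* at 1.99. The erythrocyte markers (8 genes tested) and the exocrine pancreas markers were highest in the same library. So were the sums of the liver markers (5309 against at most 3157 CPM) and of the leukocyte markers (506 against at most 330 CPM). The sums of the other lists of cell type markers were not highest there. The part of these cells in the values of the members was not tested. In the other groups members also moved with their library: replicate 2 held the lowest CPM for 84 genes in each fraction at 48 hpf, and in GFP+ at 72 hpf replicate 1 held the highest for 83 and replicate 3 the lowest for 84.

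**Figure D1:**
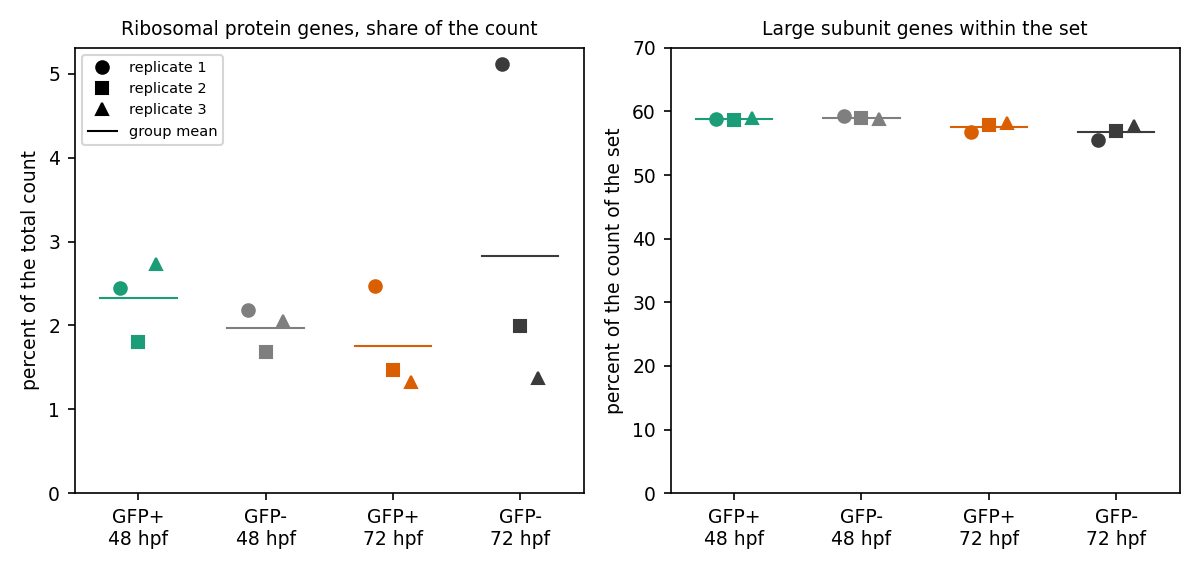
Each point is 1 library, with its replicate number as the symbol, and each line a group mean; the left panel gives the count of the 85 genes as percent of the library's total count, and the right panel the count of large subunit genes as percent of the count of the set. Replicate 1 of GFP- at 72 hpf lies at 5.12% in the left panel, above all other libraries (1.33% to 2.73%), while the right panel stays between 55.6% and 59.3%.

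Between the fractions at 48 hpf no ribosomal protein gene passed the test. By the methods a replicate comprised both fractions, but that equal numbers in the labels mark the same replicate is not stated. In all 3 same-numbered pairs the members' summed CPM was higher in GFP+ (21958 against 20110, 15617 against 14257 and 24729 against 20038). The median log2FC of GFP+ against GFP- was 0.18 over the members and 0.03 over all genes tested, with positive values for 82 of 85, and the median standard error (SE) of a member was 0.62. By edgeR's quasi-likelihood test with Benjamini-Hochberg adjustment over all genes, 0 members were higher and 0 lower, where 14.6% of all genes tested were higher and 14.4% lower, and 0 members had an unadjusted p below 0.05. DESeq2's Wald test also called 0, with 0 at an unadjusted p below 0.05. Leaving out replicate 1 of GFP- at 72 hpf, a library of neither group, lowered the median SE to 0.32 and left *RPL7L1* as the 1 called gene, against 20.1% of all genes higher and 19.0% lower.

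*RPL7L1*, the paralog of the large subunit gene *RPL7*, whose human product works in the assembly of the large subunit, had 172, 145 and 180.0 CPM in GFP+ and 94.5, 70.8 and 81.9 CPM in GFP- cells at 48 hpf. The groups did not overlap. It was the 1 member without overlap in CPM at this stage, a state reached by 27.8% of all genes on the higher side and 27.4% on the lower. Its log2FC was 1.01 (SE 0.55, edgeR padj = 0.19) in the fit of all 12 libraries, and it passed without replicate 1 of GFP- at 72 hpf (1.00, SE 0.25, padj = 0.0078) and in the fit of the compared groups alone (padj = 0.0022). Relative to the total of all members its log2FC was 0.82 (padj = 0.24, or 0.040 without that library). At 72 hpf it had 164, 129 and 96.0 CPM in GFP+ and 455, 113 and 64.2 CPM in GFP- cells, with overlap, and a log2FC of -0.70 that turned to 0.57 without replicate 1 of GFP-.

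The copies of *RPL5*, whose product carries 5S ribosomal RNA into the large subunit and binds Mdm2 in mammalian cells, had positive values at 48 hpf. The copy ENSDARG00000015862 had 200.04, 135 and 218 CPM in GFP+ and 135, 95.1 and 122 CPM in GFP- cells, with a log2FC of 0.65 (SE 0.55, edgeR padj = 0.42). The copy ENSDARG00000020197 had 173, 132 and 200.5 in GFP+ and 140.3, 101 and 124 CPM in GFP-, with a log2FC of 0.47 (SE 0.52, padj = 0.54). Neither passed. The first copy passed in the fit of the compared groups alone (padj = 0.045).

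Between the fractions at 72 hpf the direction of the set depended on which libraries were used, and 0 members passed in the fits with all libraries and without replicate 1 of GFP- or of both fractions. With all 12 libraries the median log2FC was -1.13 (all genes -0.02), and 84 of 85 members were negative. Without replicate 1 of GFP- it was 0.33 (all genes 0.10), and 85 of 85 were positive. That fit keeps the same-numbered library of the other fraction, replicate 1 of GFP+, which held the highest CPM of its group for 83 members. Leaving out both, a choice made after seeing the data, gave a median of -0.06 (all genes 0.06), 25 positive and 60 negative members and 0 called, with 0 at an unadjusted p below 0.05, against 5.97% of all genes higher and 9.32% lower. In the remaining same-numbered pairs the summed CPM went both ways, at 16454 in GFP+ against 19526 in GFP- (replicate 2) and 13590 against 11604 (replicate 3). The edgeR test called 0 members in either direction, against 6.22% of all genes higher and 10.8% lower, with 1 member at an unadjusted p below 0.05, and DESeq2's Wald test called 0, with 37 at an unadjusted p below 0.05. Without replicate 1 the test again called 0, with 0 at an unadjusted p below 0.05, against 7.13% of all genes higher and 11.6% lower. Leaving out replicate 3 of GFP- gave 5 members as lower, among them *RPS28*, *rps20*, *RPL34* and *RPL36*, chosen here by their values. The share of all genes called lower in that fit is not given here, so these 5 are not read as a result about the members. In CPM, the ranges of the fractions overlapped for every member at 72 hpf, where 16.1% of all genes were higher and 15.1% lower without overlap. Once replicate 1 of GFP- was left out, *RPL22L1* was higher without overlap, against 21.8% of all genes higher and 22.0% lower.

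**Figure D2:**
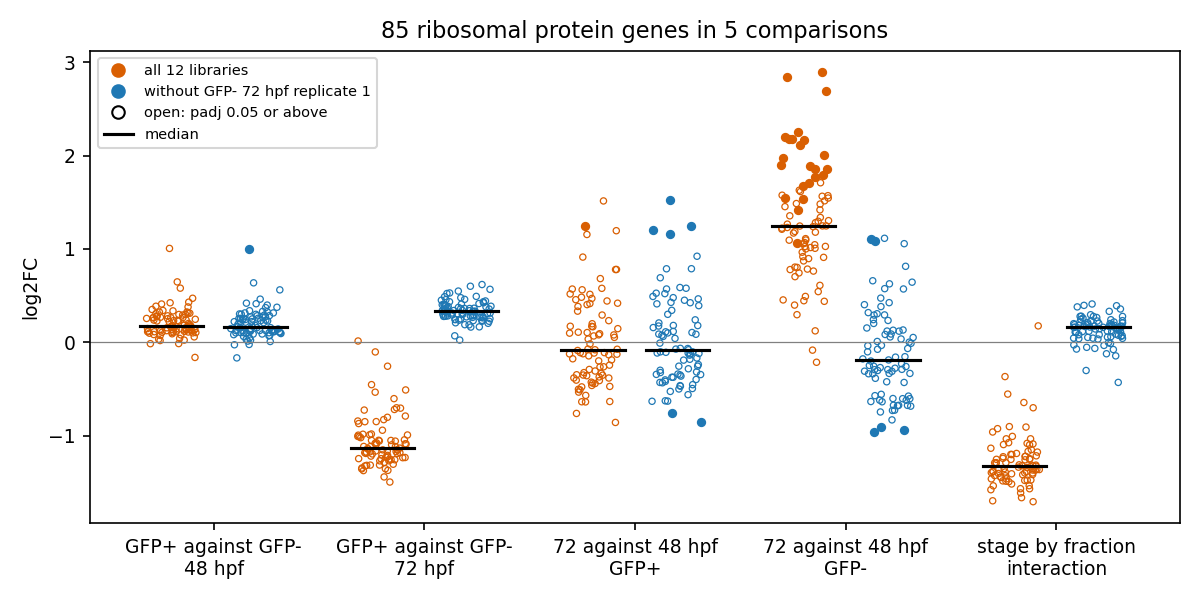
Each point is the log2FC of 1 of the 85 genes in 1 of the 5 comparisons, filled where padj was below 0.05 in edgeR's test, with all 12 libraries in orange and without replicate 1 of GFP- at 72 hpf in blue; black lines are medians. Leaving out that library moves the medians of the comparisons that use it from -1.13 to 0.33, from 1.24 to -0.19 and from -1.33 to 0.16, and hardly moves the others.

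Between the stages in GFP+ cells the median of the set lay near 0, and 1 gene passed the test. The median log2FC of 72 against 48 hpf was -0.09 (all genes -0.02), with 38 members positive and 47 negative. The edgeR test called 1 member higher and 0 lower, against 11.4% of all genes higher and 11.5% lower, with 1 member at an unadjusted p below 0.05.

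Markers of cell types moved between the stages too. The cardiomyocyte markers, 9 of 10 called higher in GFP- cells (7 without replicate 1 of 72 hpf), went from 53.7 to 245 CPM to 345 to 1360 CPM there. In GFP+ cells 0 of them were called higher and 1 lower, and they went from 2733 to 5292 CPM to 1694 to 2679 CPM. The smooth muscle and bulbus arteriosus markers, 6 of 6 called higher at 72 hpf in either fraction, summed to 122 to 152 CPM in GFP+ at 48 hpf and 6627 to 7937 CPM at 72 hpf, and to 22.3 to 41.1 and then 1635 to 3144 CPM in GFP- cells. The liver markers, 8 of 8 called higher in GFP- and 1 of 8 in GFP+, went from 13.1 to 49.1 CPM to 1901 to 5309 CPM in GFP- cells and from 532 to 2412 CPM to 2491 to 3157 CPM in GFP+ cells. Of the 9 neuron marker genes 6 were called lower in either fraction, and they went from 1243 to 1542 CPM to 469 to 509 CPM in GFP+ and from 4792 to 9126 CPM to 1144 to 2161 CPM in GFP- cells. None of the groups compared overlapped in these sums. The photoreceptor and retina markers, 6 of 7 called higher in GFP- cells, went from 22.6 to 42.2 CPM to 458 to 1083 CPM there, and their sums overlapped between the stages in GFP+ cells. The part of all these cells in the values of the ribosomal protein genes was not tested.

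Leaving out replicate 1 of GFP- at 72 hpf, a library that takes no part in this comparison but in its estimate of the spread, 6 members passed in GFP+ cells, 4 higher and 2 lower, against 17.5% of all genes higher and 17.1% lower. Among the higher were *RPS28*, a small subunit protein near the exit of the mRNA channel, *RPL37*, a zinc-binding protein of the large subunit, and *rps27l*, a paralog of *rps27* that p53 induces in human cells. Lower were *RPLP0*, the base of the stalk that binds the elongation factors, and *RPL22L1*, the paralog of *RPL22*.

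Between the stages in GFP- cells most members had higher values at 72 hpf with all 12 libraries, and most had lower values without 1 of them. The median log2FC was 1.24 (all genes 0.14), and 83 of 85 members were positive. The edgeR test called 23 members higher (12 of the large and 11 of the small subunit) and 0 lower, where 26.1% of all genes tested were higher and 22.3% lower, so that the share of members called higher (27.1%) lay close to that of all genes. The highest were *RPS28* (2.89, SE 0.75, padj = 0.0078), *rps27l* (2.84, SE 0.79, padj = 0.011) and *RPL37* (2.69, SE 0.70, padj = 0.0080). With the replicate number as a block 17 were called, 16 of them among the 23, and with the DESeq2 Wald test 36, among them all 23. The shares of all genes called in these fits are not given here, so their counts cannot be set against a background.

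Without replicate 1 of GFP- at 72 hpf the median of the members was -0.19 (all genes 0.07), and 5 members passed, 2 higher and 3 lower, against 23.7% of all genes higher and 21.5% lower. The higher ones were *RPL37* and *RPS28*, and only these remained of the 23. The lower ones were *RPL22L1*, *RPL9* and *RPLP0*. Leaving out single other libraries moved the count of higher members to 7, 3 and 9 (replicates 1, 2 and 3 of GFP- at 48 hpf, where 19.8%, 21.2% and 20.9% of all genes were higher) and to 34 and 61 (replicates 2 and 3 of GFP- at 72 hpf, with 24.3% and 27.0%). The 4 called in common by both stage comparisons without that library (*RPL37*, *RPS28*, *RPL22L1* and *RPLP0*) were 66.7% of those called in GFP+ and 80.0% of those called in GFP- cells. The same overlap over all genes is not given here. Both fractions were sorted from pooled hearts and the comparisons share the estimate of the spread, so the lists cannot be taken as independent.

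Next to *RPS28*, *rps27l* and *RPL37*, high values among the 23 were found in members of both subunits, of which 4 are given here, chosen by their values. *RPS29*, a zinc-binding protein of the head of the small subunit, had 75.8, 41.9 and 73.8 CPM in GFP- at 48 hpf and 683, 145 and 82.9 CPM at 72 hpf (log2FC 2.25, SE 0.65, edgeR padj = 0.014). *RPL38*, which in the mouse is needed for the translation of certain Hox mRNAs, had 73.6, 38.8 and 64.5 and then 522, 112 and 77.4 CPM (log2FC 2.01, SE 0.61, padj = 0.016). In both genes the stages did not overlap, and replicate 1 at 72 hpf was the highest library by far. *RPS21* had 72.7, 43.8 and 73.4 and then 674, 132 and 68.9 CPM (log2FC 2.20, padj = 0.019), and *RPL7* had 158, 111 and 151 and then 1449.8, 293 and 147 CPM (log2FC 2.17, padj = 0.016), both with replicate 3 of 72 hpf inside the range of 48 hpf. Leaving out replicate 1, the log2FC of these genes was 0.81 for *RPS29*, 0.66 for *RPL38*, 0.64 for *RPS21* and 0.63 for *RPL7*, and none of them passed.

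The interaction, which tests whether the difference of the fractions changed between the stages, called 0 members in either direction, against 2.47% of all genes higher and 5.7% lower. The median was -1.33 with all libraries and 0.16 without replicate 1 of GFP- at 72 hpf, and the median SE was 0.87 and 0.47. With all libraries 1 member (*RPL7L1*) had an unadjusted p below 0.05, and DESeq2's Wald test called 0, with 1 at an unadjusted p below 0.05. When replicate 1 of GFP- at 72 hpf was left out, edgeR called 0, with 0 at an unadjusted p below 0.05, where 4.11% of all genes were higher and 7.03% lower. Without replicate 3 of that group *RPL7L1* was called lower, at a log2FC of -2.12, and the share of all genes in that fit is not given here.

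*RPS28* had 117, 70.8 and 123 CPM in GFP+ and 98.3, 63.2 and 99.2 CPM in GFP- at 48 hpf, and 348, 216 and 149 CPM in GFP+ and 1561, 255 and 119 CPM in GFP- at 72 hpf. In both fractions every library of 72 hpf lay above every library of 48 hpf. The log2FC in GFP+ was 1.20 (SE 0.71, padj = 0.25) with all libraries and 1.20 (SE 0.36, padj = 0.022) without replicate 1 of GFP- at 72 hpf, and in GFP- it was 2.89 with all and 1.08 (SE 0.39, padj = 0.040) without.

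*RPL37* followed the same course. It had 89.3, 52.7 and 101 CPM in GFP+ and 78.6, 50.3 and 85.8 CPM in GFP- at 48 hpf, and 272, 152 and 118 CPM in GFP+ and 1072, 207 and 106 CPM in GFP- at 72 hpf, again without overlap between the stages in either fraction. Without replicate 1 of GFP- at 72 hpf the log2FC was 1.16 (SE 0.37, padj = 0.027) in GFP+ and 1.11 (SE 0.40, padj = 0.039) in GFP- cells. On the CPM scale 6 members were higher and 2 lower without overlap in GFP+ cells (all genes 25.0% and 24.9%), and 5 higher and 0 lower in GFP- cells (27.1% and 28.1%). The 0 rests on replicate 1 of GFP- at 72 hpf: without it 5 members were higher and 10 lower (34.2% and 31.7%).

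*RPLP0* went the other way. It had 951, 818 and 1156 CPM in GFP+ and 997, 729 and 939.7 CPM in GFP- at 48 hpf, and 805, 418 and 391 CPM in GFP+ and 1373, 559 and 368 CPM in GFP- at 72 hpf. In GFP+ cells the stages did not overlap, and in GFP- cells they did through replicate 1. The log2FC without that library was -0.85 (SE 0.30, padj = 0.041) in GFP+ and -0.96 (SE 0.34, padj = 0.035) in GFP-, and with it -0.86 (padj = 0.19) and -0.21 (padj = 0.71).

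*RPL22L1* and *RPL9* were the other members that fell in GFP- cells without that library. *RPL22L1* had 87.8, 58.4 and 100.1 CPM in GFP+ and 74.5, 44.3 and 66.5 CPM in GFP- at 48 hpf, and 58.3, 44.2 and 42.8 in GFP+ and 194, 37.6 and 29.6 CPM in GFP- at 72 hpf. Its log2FC was -0.75 (padj = 0.038) in GFP+ and -0.90 (padj = 0.025) in GFP- cells without the library, and 0.49 in GFP- with it. *RPL9*, of the large subunit, had 407, 315 and 406 CPM in GFP- at 48 hpf and 1131, 243 and 155 CPM at 72 hpf. The difference on the log2 scale was -0.94 (SE 0.32, padj = 0.028) without replicate 1 and 0.44 with it.

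Because most members moved with their library, each was also measured against the total count of the set, where a member that follows the set stays near 0. A departure was called at padj below 0.05 and a log2FC beyond 1 in size. With all libraries 2 members departed, both upward at 72 hpf in GFP- cells, against 4.7% of all genes higher and 1.27% lower by the same measure: *RPS28* (1.52, SE 0.38, padj = 0.034) and *RPL37* (1.44, SE 0.37, padj = 0.039). In the other comparisons 0 departed, where 2.98% and 2.95% of all genes did at 48 hpf, 0.732% and 2.33% at 72 hpf, 1.59% and 0.568% between the stages in GFP+, and 0.0% in the interaction. Of the members, 1, 0, 7 and 0 had an unadjusted p below 0.05 there. Departures may be missed, and not only because a group held 3 libraries. The estimate of the spread drew on all genes measured against the members' total, not on the members alone. A count of 0 therefore does not show that the members followed the set.

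The share of the set's count describes the make-up of the counts, without a test. Gene length was not used, so these are shares of counts and not of molecules. Any part of transcript length or RNA quality in the differences between libraries was not tested. *RPS28* took 0.535, 0.453 and 0.497 percent of the set in GFP+ and 0.489, 0.443 and 0.495 percent in GFP- at 48 hpf, and 1.25, 1.31 and 1.097 percent in GFP+ and 1.75, 1.305 and 1.03 percent in GFP- at 72 hpf. *RPL37* took 0.407, 0.337 and 0.410 percent in GFP+ and 0.391, 0.353 and 0.428 percent in GFP- at 48 hpf, and 0.975, 0.921 and 0.868 percent in GFP+ and 1.20, 1.06 and 0.913 percent in GFP- at 72 hpf. Both shares were higher in each library of 72 hpf than in any of 48 hpf, in replicate 1 of GFP- as in the others.

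*RPS29* took 0.417, 0.331 and 0.373 percent of the set in GFP+ and 0.377, 0.294 and 0.368 percent in GFP- at 48 hpf, and 0.673, 0.636 and 0.629 percent in GFP+ and 0.767, 0.744 and 0.714 percent in GFP- at 72 hpf. *RPS21* took 0.332, 0.267 and 0.296 percent in GFP+ and 0.361, 0.307 and 0.366 percent in GFP- at 48 hpf, and 0.639, 0.634 and 0.523 percent in GFP+ and 0.757, 0.676 and 0.594 percent in GFP- at 72 hpf. *RPL7* took 0.848, 0.887 and 0.836 percent in GFP+ and 0.787, 0.780 and 0.756 percent in GFP- at 48 hpf, and 1.53, 1.73 and 1.48 percent in GFP+ and 1.63, 1.499 and 1.27 percent in GFP- at 72 hpf. *RPS29*, *RPS21*, *RPL8* and *RPL9* are shown because of their values, which were seen first. In *RPS29*, *RPS21* and *RPL7* all 72 hpf libraries lay above all 48 hpf libraries.

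*RPLP0* took 4.33, 5.24 and 4.67 percent of the set in GFP+ and 4.96, 5.11 and 4.69 percent in GFP- at 48 hpf, and 2.88, 2.54 and 2.87 percent in GFP+ and 1.54, 2.86 and 3.17 percent in GFP- at 72 hpf. *RPL8*, the large subunit protein beside the peptidyl transferase centre, took 1.68, 1.69 and 1.69 percent in GFP+ and 1.77, 1.84 and 1.81 percent in GFP- at 48 hpf, and 1.23, 1.12 and 1.105 percent in GFP+ and 1.09, 1.22 and 1.166 percent in GFP- at 72 hpf. *RPL9* took 1.81, 1.73 and 1.82 percent in GFP+ and 2.02, 2.21 and 2.03 percent in GFP- at 48 hpf, and 1.21, 1.39 and 1.37 percent in GFP+ and 1.27, 1.25 and 1.33 percent in GFP- at 72 hpf. These 3 shares were lower in every library of 72 hpf than in any of 48 hpf of the same fraction.

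Over the set, the share of 34 members was higher and that of 26 lower at 72 hpf without overlap in GFP+ cells (18.8% and 13.2% of all genes measured against the same total), and of 34 and 22 in GFP- cells (11.1% and 19.6%). Of the higher ones 33 were the same genes, 97.1% of either list, and of the lower ones 22, or 84.6% of those in GFP+ and all of those in GFP-. No gene was in opposite lists. The overlap over all genes is not given here, and lists of fractions sorted from pooled hearts cannot be taken as independent. When replicate 1 of GFP- at 72 hpf was left out, 37 were higher and 24 lower in GFP- cells (35.4% and 19.7%), of which 34 and 23 were in the lists of GFP+, and 1 gene, *RPL5* ENSDARG00000015862, was lower in GFP+ and higher in GFP-. Between the fractions, 13 were higher and 9 lower in GFP+ at 48 hpf (17.5% and 24.9%) and 5 and 9 at 72 hpf (7.6% and 4.81%), or 8 and 10 without that library (7.83% and 19.5%). Shares within a set sum to the whole, so a rise of some lowers others. Dividing by this total takes out movement that the members share, but not that of other genes. The percentages of all genes, here and for the departures, are therefore no like-for-like background for the members.

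**Figure D3:**
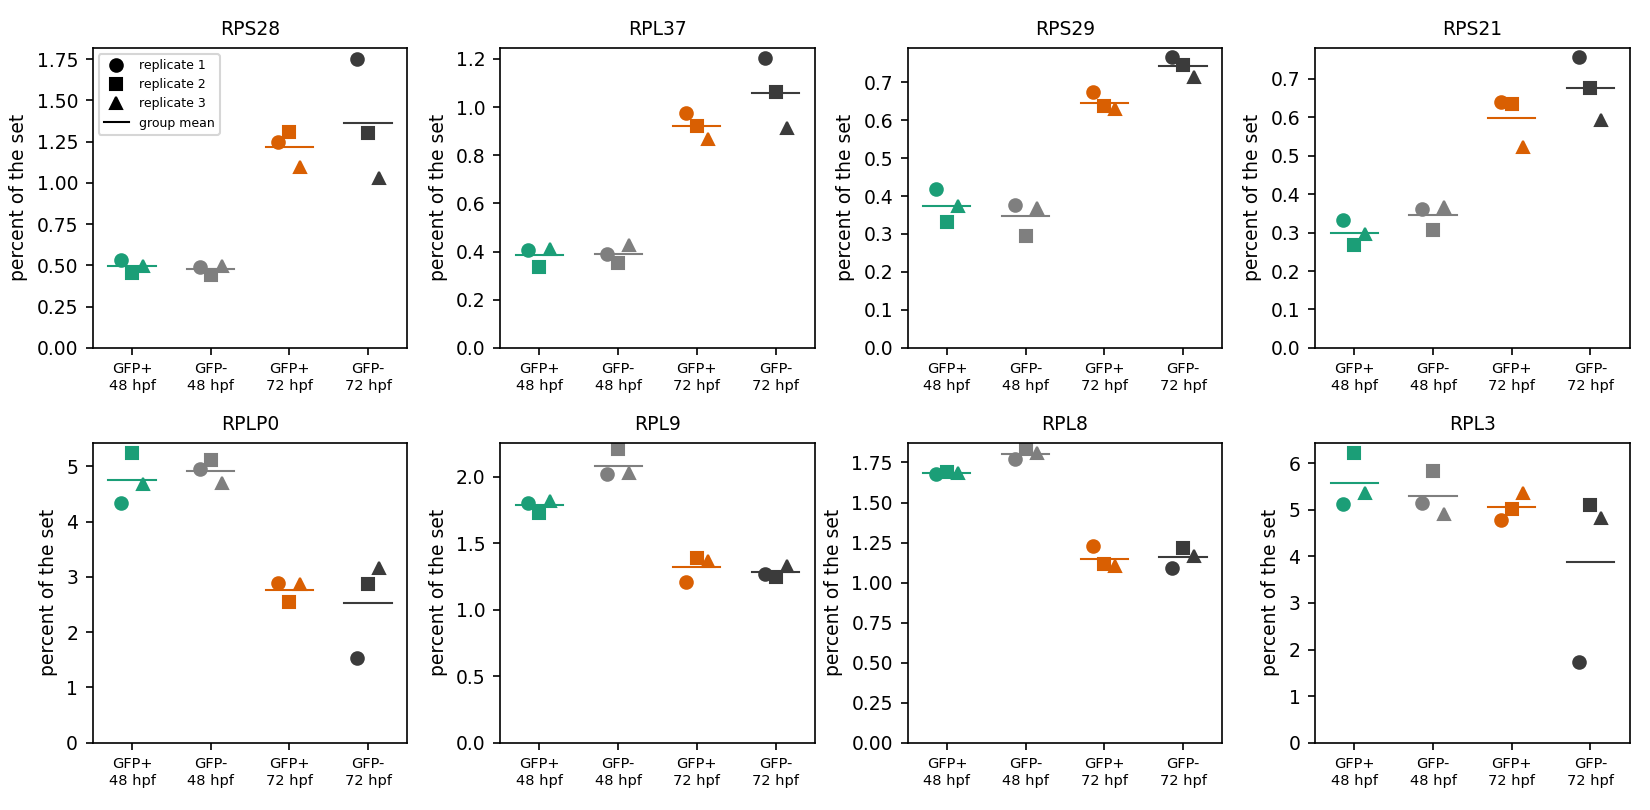
Each panel gives 1 gene's count as percent of the count of all 85 genes, 1 point per library with its replicate number as the symbol and a line at each group mean. The upper row (RPS28, RPL37, RPS29 and RPS21) lies higher at 72 than at 48 hpf in both fractions, RPLP0, RPL9 and RPL8 lie lower, and RPL3 falls to 1.74% in replicate 1 of GFP- at 72 hpf alone.

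Without replicate 1 of GFP- at 72 hpf, 6 members rose and 1 fell against the set between the stages in GFP+ cells at padj below 0.05 with no limit on size, where 10.6% of all genes rose and 5.56% fell. Higher were *RPL37*, *RPL7*, *RPS21*, *RPS26* ENSDARG00000037071, *RPS28* and *rps27l*, and lower was *RPLP0*. In GFP- cells 7 rose and 0 fell, where 18.6% and 4.79% of all genes did, and they were *RPL37*, *RPL38*, *RPL7*, *RPS21*, *RPS28*, *RPS29* and *rps27l*. The lists share 5 genes, 71.4% of either. The comparisons share no library, but they share the estimate of the spread. By the methods both fractions were sorted from pooled hearts and a replicate comprised both, so the lists cannot be taken as independent. Past a log2FC of 1 there were 4 in each. A limma fit on the same shares called 0 departures with all libraries, and 4 in each without that one. The shares of all genes past that limit and in the limma fits are not given here. These counts are therefore not read as a result about the members.

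**Figure D4:**
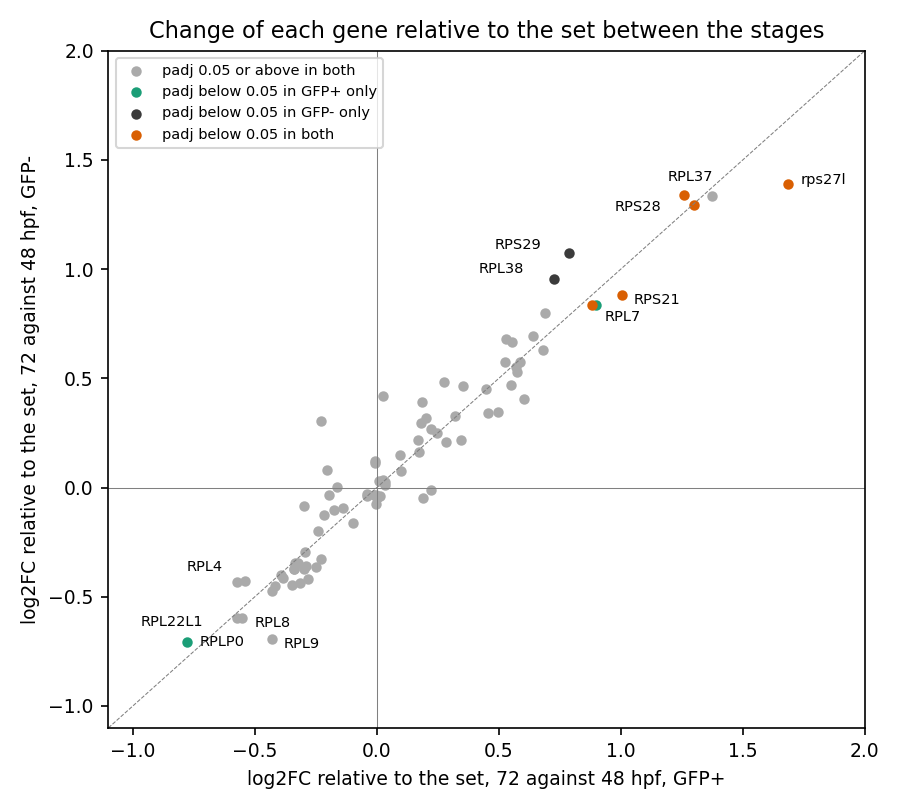
Each point is 1 gene, placed by its log2FC of 72 against 48 hpf relative to the total of the set in GFP+ (horizontal) and GFP- cells (vertical), fitted without replicate 1 of GFP- at 72 hpf; colours give where padj was below 0.05, and the dashed line marks equal values. The 5 genes called in both fractions sit at the upper right, and RPLP0 and RPL9 at the lower left.

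The large subunit took a smaller part of the set at 72 than at 48 hpf in both fractions without overlap, from 58.7% to 59.0% down to 56.7% to 58.2% in GFP+ and from 58.8% to 59.3% down to 55.6% to 57.7% in GFP- cells. Large subunit genes took a mean of 58.8% ± 0.145 of the set's count in GFP+ and 59.0% ± 0.254 in GFP- at 48 hpf, and 57.6% ± 0.769 in GFP+ and 56.7% ± 1.07 in GFP- at 72 hpf (± SD, n = 3). The median log2FC between the stages in GFP- was 1.25 for the large and 1.22 for the small subunit with all libraries, and -0.23 and -0.15 without replicate 1.

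The paralog families, 9 families with 19 genes, were described by the share each gene took of its family's count. These are shares of counts, not of molecules, since gene length was not used, and the counting tool divides reads that fit near-identical copies. *RPL7L1* took 46.5% to 51.1% of the *RPL7* pair in GFP+ and 35.1% to 38.9% in GFP- at 48 hpf, and 27.7% to 32.4% and 23.9% to 30.4% at 72 hpf. *RPL22L1* took 33.3% to 34.3% of its pair in GFP+ and 29.1% to 30.4% in GFP- at 48 hpf, and 21.6% to 29.2% and 19.1% to 21.4% at 72 hpf. Both like genes thus lost share of their pair to *RPL7* and *RPL22* between the stages in each fraction without overlap, and both had the larger share in GFP+ at 48 hpf without overlap. Of the whole set's count, *RPL22L1* took less at 72 hpf in both fractions without overlap. *RPL7L1* did not: its share of the set overlapped between the stages in GFP+ and was higher at 72 hpf without overlap in GFP- cells.

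*rps27l* took 6.31% to 10.5% of the *rps27* family in GFP+ and 4.36% to 10.7% in GFP- at 48 hpf, and 15.2% to 19.2% and 11.2% to 17.1% at 72 hpf. *rplp2*, a stalk protein, took 34.5% to 35.6% of its pair with *rplp2l* in GFP+ and 33.3% to 36.2% in GFP- at 48 hpf, and 41.8% to 43.1% and 39.9% to 41.6% at 72 hpf. In these families the share of the named gene was higher at 72 hpf in both fractions without overlap. In CPM *rps27l* had 50.8, 23.4 and 30.2 in GFP+ and 51.0, 12.9 and 25.2 in GFP- at 48 hpf, and 116, 107 and 75.0 in GFP+ and 507, 88.5 and 42.6 in GFP- at 72 hpf. Its log2FC between the stages was 1.51 in GFP+ (SE 0.75, padj = 0.16, and 0.045 with the replicate block) and 2.84 in GFP- cells, and without replicate 1 of GFP- at 72 hpf 1.52 (padj = 0.022) and 1.11 (padj = 0.085).

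**Figure D5:**
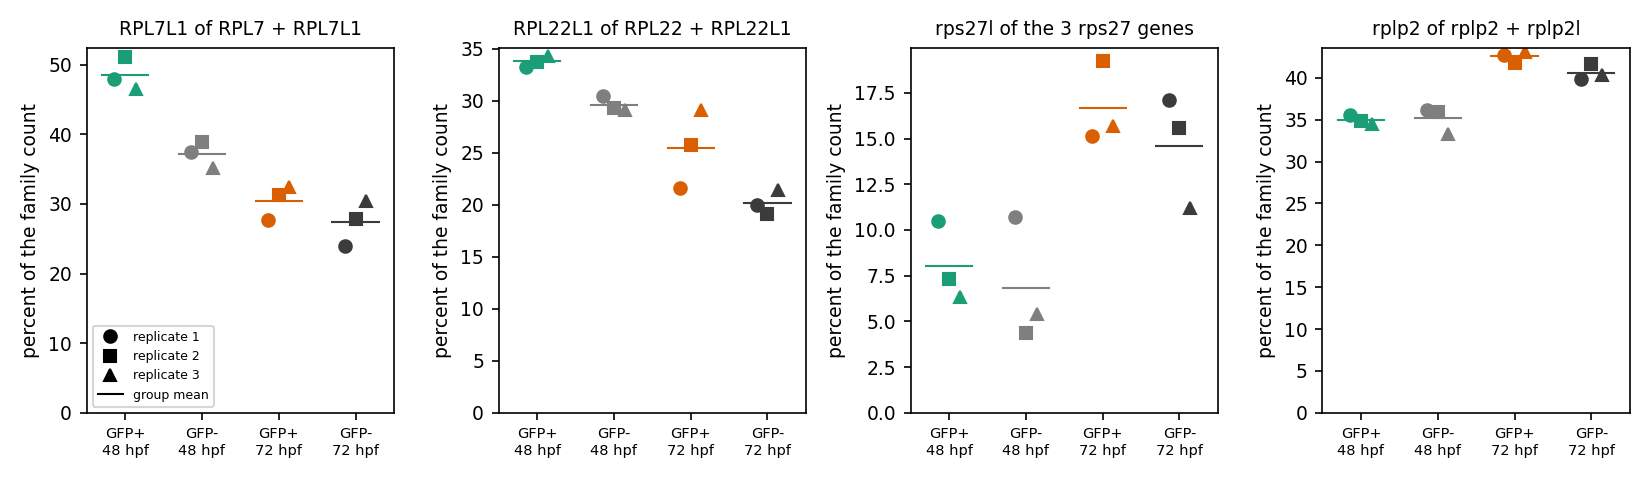
Each panel gives the count of 1 gene as percent of the count of its paralog family, 1 point per library with its replicate number as the symbol and a line at each group mean. RPL7L1 and RPL22L1 lie lower at 72 than at 48 hpf in both fractions, and rps27l and rplp2 lie higher.

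The copies of *RPS26* and *RPL5* had closer shares. The *RPS26* copy ENSDARG00000037071 took 42.0% to 44.7% of its pair in GFP+ and 48.3% to 51.8% in GFP- at 48 hpf, then 45.5% to 48.8% and 48.8% to 53.1%, so that the fractions were apart at 48 hpf. The *RPL5* copy ENSDARG00000015862 took 50.4% to 53.6%, 48.5% to 49.7%, 51.6% to 52.0% and 50.4% to 54.9% in GFP+ and GFP- at 48 hpf and GFP+ and GFP- at 72 hpf.

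Among the members with a further role, none passed between the fractions. *RPS6*, the target of S6 kinase, had a log2FC of GFP+ against GFP- of 0.28 at 48 hpf and -1.05 at 72 hpf. *RPL11*, the partner of *RPL5* in binding Mdm2 in mammalian cells, had 0.27 and -1.25. *RPS19*, mutated in Diamond-Blackfan anaemia in humans, had 0.14 and -1.15. *RPSA2* had 0.17 and -0.53, *RPL13A* 0.28 and -0.94, *RPL8* 0.10 and -0.99, and *RPLP0* 0.13 and -0.51. Without replicate 1 of GFP- at 72 hpf these values at 72 hpf ran from 0.24 for *RPLP0* to 0.46 for *RPL13A*, all positive. That fit keeps replicate 1 of GFP+, in which most members were highest of their group. Leaving out both gave more negative than positive members in the set, and the values of these genes in that fit are not given here.

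Between the stages in GFP+ cells the same members had log2FC values of -0.32 (*RPS6*), 0.33 (*RPL11*), 0.42 (*RPS19*), -0.40 (*RPSA2*), -0.11 (*RPL13A*) and -0.63 (*RPL8*), and none passed. *RPS6* had 392, 298 and 454 CPM in GFP+ at 48 hpf and 456, 252 and 205 CPM at 72 hpf, and *RPL11* had 70.6, 43.7 and 82.8 and then 121, 72.0 and 55.1 CPM. The stages overlapped for both. In GFP- cells the values were 1.01 for *RPS6*, 1.85 for *RPL11* and 1.71 for *RPS19* with all libraries, where *RPL11* passed (edgeR padj = 0.040), and -0.43, 0.20 and 0.13 without replicate 1 of GFP- at 72 hpf.

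The most counted members were *RPL3*, a core protein of the large subunit, with 432630 counts over all libraries, *RPL19* with 412966 and *RPS2* with 334928. *RPL3* took 5.12, 6.22 and 5.36 percent of the set in GFP+ and 5.15, 5.83 and 4.90 percent in GFP- at 48 hpf, 4.78, 5.02 and 5.36 percent in GFP+ at 72 hpf, and 1.74, 5.11 and 4.82 percent in GFP- at 72 hpf. Replicate 1 of GFP- at 72 hpf stood alone below the rest. *RPL22L1*, with 26374, was among the 3 least counted.

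Genes that work with the ribosome were compared as lists chosen with results of these data known. Of 75 mitochondrial ribosomal protein genes 38 were higher and 0 lower between the stages in GFP- (26.1% and 22.3% of all genes tested), and 9 and 2 without replicate 1 of GFP- at 72 hpf (23.7% and 21.5%). Their summed CPM was 12753 in that library and 1910 to 3578 in the others.

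Of 41 tested ribosome biogenesis genes, 17 were higher and 0 lower in GFP+ than in GFP- cells at 48 hpf (14.6% and 14.4% of all genes tested), with a median log2FC of 0.90. Without replicate 1 of GFP- at 72 hpf, a library of neither group, 31 were higher and 1 lower (20.1% and 19.0% of all genes). Of the first genes of that list, *FBL*, the methyltransferase of box C/D particles, had a log2FC of 1.095 (edgeR padj = 0.041), *ncl*, nucleolin, 0.79 (padj = 0.047), *npm1a*, nucleophosmin, 1.83 (padj = 0.0033), and *NOP56*, a box C/D core protein, 0.97 (padj = 0.038). At 72 hpf 0 were called in either direction, and the interaction called 0 higher and 1 lower, *npm1a* (log2FC -2.04, padj = 0.033), against 2.47% and 5.7% of all genes. Leaving out replicate 1 of GFP- at 72 hpf, it called 0 higher and 3 lower, *npm1a*, *nop2* and *POLR1A* (4.11% and 7.03%). Of the 85 ribosomal protein genes, 0 were called between the fractions at 48 hpf with all libraries, at a median log2FC of 0.18. Without that library 1 was called there, *RPL7L1*. The difference between the lists was not tested.

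A list of 33 genes held translation factors and other mRNAs with a terminal oligopyrimidine tract. Of these, 3 were higher and 2 lower at 48 hpf (14.6% and 14.4% of all genes tested). Without replicate 1 of GFP- at 72 hpf 5 were higher and 3 lower (20.1% and 19.0%). Between the stages in GFP- 5 were higher and 2 lower (26.1% and 22.3%), with a median log2FC of 0.33, but without that library 3 were higher and 6 lower (23.7% and 21.5%), with a median of -0.21. Of 22 regulators of growth around Myc, mTOR and p53, 2 were higher and 3 lower at 48 hpf, or 5 and 3 without the library, and 3 were higher and 4 lower between the stages in GFP-, or 5 and 5 without it. The shares of all genes are those given for the list of translation factors and other such mRNAs.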

How the data were processed

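Poly-A RNA of the sorted heart cells gave 12 sequenced cDNA libraries. Per the labels and the methods, reads were demultiplexed with bcl2fastq 2.16.0.10, trimmed with cutadapt 1.17 and assigned to GRCz11 with Salmon 0.9.1. The values the authors deposited are raw counts, whole numbers for each Ensembl gene, and how transcript estimates were summed to genes is not given in the sources used here. The library kit does not mark strand, so reads of overlapping antisense genes are not separated.

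Symbols came from a gene name table, which matched 25441 of 27191 genes, and the members and lists were chosen with earlier results of these data known. Named members were all paralogs, departing members, the 3 most and 3 least counted, and *RPLP0*, *RPSA2*, *RPS6*, *RPL5*, *RPL11*, *RPL8*, *RPL13A* and *RPS19*, and some genes that this rule takes are not reported here. Genes were filtered with filterByExpr by group and scaled with TMM. The quasi-likelihood test of edgeR 4.0.16 (R 4.3.3) was run on all 4 groups together, p-values were adjusted over all genes tested by the Benjamini-Hochberg method, and padj below 0.05 was called. Departures used the members' total count as library size. Alternatives were DESeq2 1.42.0 (size factors and Wald test), total counts, no filter, the replicate block, the compared groups alone, a reference without the member tested, and leaving out each library. Leaving out replicate 1 of GFP- at 72 hpf throughout, leaving it out with replicate 1 of GFP+ and a limma 3.58.1 departure fit were added after seeing the data. The tests were run on simulated counts with known differences, and the outcome is not reported here. The members had a fixed spread there and not that of these data. The simulation therefore does not show how the departure test performs at the spread found here. Tables and figures were made with Python 3.11.15, pandas 2.3.3, numpy 2.4.6 and matplotlib 3.10.9.

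The block used the replicate numbers of the labels, since by the methods a replicate comprised GFP+ and GFP- cells of either stage. That equal numbers mark the same replicate is an assumption. Correlations of same-numbered deviations ran from 0.10 to 0.31 at 48 hpf, from -0.08 to 0.37 at 72 hpf, from -0.11 to 0.01 between the stages in GFP+ and from 0.00 to 0.28 in GFP-. A legend of the study calls the replicates technical, and if so, p-values measure technical spread only. Identical counts were found in 0 of 66 library pairs.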

Additional observations from a re-analysis of the deposited data

How the results depend on the processing

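Of 246 comparisons with another setting for all libraries, 211 kept direction, side of the threshold or count within 1.5 times, and of 291 with libraries left out 237 did. Shares of all genes called are not given in this section, so its counts describe the settings and are not set against a background. In the fit of the compared groups alone, 2 members were higher at 48 hpf, 3 higher and 2 lower between the stages in GFP+, and 4 higher in GFP-. With total counts in place of TMM, 0 were higher and 2 lower (*RPLP0* and *RPL4*) between the stages in GFP+ and 11 higher in GFP-, where the log2FC of *RPL22L1* turned to -0.13 and that of *RPL9* to -0.19. That scaling moved the median of all genes from -0.02 to -0.32 in GFP+ and from 0.14 to -0.10 in GFP-. DESeq2's Wald test called 36 higher between the stages in GFP-. Without the filter 0 were higher between the stages in GFP+, and 1 departed in GFP-. Departures by limma were 0 in GFP- with all libraries, and 4 in GFP+ and 4 in GFP- without replicate 1 of GFP- at 72 hpf. The replicate block gave 17 in place of 23 higher between the stages in GFP- and called *rps27l* between the stages in GFP+, and it changed no other count of members. Among the other lists it gave 21 in place of 17 ribosome biogenesis genes higher at 48 hpf. On the list of translation factors and other oligopyrimidine tract mRNAs it gave 4 in place of 3 higher there. Of the growth regulators 2 in place of 3 were lower at 48 hpf. Between the stages in GFP- it gave 26 in place of 38 mitochondrial ribosomal protein genes higher. The translation factor list had 4 higher and 3 lower in place of 5 and 2, and 7 in place of 4 growth regulators were lower.

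Leaving out 1 library at a time, the count of members was 0 to 1 higher at 48 hpf, 0 to 5 lower at 72 hpf, 0 to 4 higher and 0 to 2 lower between the stages in GFP+, 2 to 61 higher and 0 to 3 lower in GFP-, and 0 to 1 lower in the interaction. Departures between the stages numbered 0 to 4 in GFP+ and 0 to 4 in GFP-. The log2FC of *RPL7L1* at 72 hpf ran from -1.12 to 0.57, and between the stages in GFP- that of *RPLP0* from -0.96 to 0.11, of *RPL22L1* from -0.90 to 0.89 and of *RPL9* from -0.94 to 0.86. Without replicate 1 of both fractions the median of the members at 72 hpf was -0.06. The cause of these changes was not tested. With 3 libraries a group the median SE of a member was 0.62 at 48 hpf, which limits what can be seen.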
